A study of Mus musculus with 33 samples.

Results

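Motoneurons labelled as carrying a knockdown of 7SK were grown so that axons and cell bodies could be harvested apart. The comparison asked which RNAs were relatively abundant in the axons of these cells and which in their cell bodies. A record (a gene or, in 327 of the kept records, several merged neighbouring genes) was kept where its FPKM (fragments per kilobase of transcript, scaled to library depth) was at least 1 in either compartment, which left 13968 of 37926 records. For each one the log2 ratio of axon over somatodendritic FPKM was formed with 0.1 FPKM added to both, and the median of all kept records was subtracted. That median stood at -0.42, so a centred ratio of 0 belongs to a record with somewhat less FPKM in axons than in cell bodies. Records with a centred ratio of at least 1 are called axon-rich and those of at most -1 axon-poor.

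Primary motoneurons of the CD-1 mouse strain had been grown in microfluidic chambers, in which axons pass through narrow channels into a compartment of their own. RNA of either side was isolated with a PicoPure kit. The groups labelled 7SK knockdown held 4 libraries per compartment. The GFP control groups likewise held 4 each, and the groups with a knockdown of hnRNP R, a protein partner of 7SK, held 3 each. The labels name no genotype beyond the strain, no age and no agent or construct, and they do not say that libraries were separate cultures. The authors' tables give 1 FPKM per group, without a spread, and the axon and somatodendritic values come from tables scaled separately, so the ratios below are descriptions with no test. Read depth is unknown.

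7SK is an abundant small nuclear RNA that binds and inactivates the kinase P-TEFb, which releases RNA polymerase II into elongation, and part of it is held by hnRNP proteins instead. Axons of motoneurons contain a local transcriptome. In many neuron types, messengers of ribosomal proteins, of mitochondrial proteins and of the cytoskeleton are known to reach axons, where they can be translated far from the nucleus. An axonal compartment also collects RNA of any other cell that has crossed or settled there, and in bulk RNA fewer cells of a type and less RNA per cell cannot be told apart.

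The targeted RNA was read first. Rn7sk, the 7SK gene (GRCm38 chromosome 9, 78175303 to 78175633), stood at 3508 FPKM in axons and 6370.2 FPKM in cell bodies of the 7SK knockdown, 2708 and 9104 FPKM in control, and 4545 and 13493 FPKM in the hnRNP R knockdown. Its level in cell bodies was lower than in control (q = 0.00407 in the authors' deposited table), whereas in axons it was listed above control (q = 0.594 in the authors' deposited table), so the axon group labelled 7SK knockdown goes against its label. Axons of the 7SK knockdown below always means the libraries labelled so. The centred axon-to-soma ratio of Rn7sk was -0.44 in these groups, -1.34 in control and -1.01 in the hnRNP R knockdown. Hnrnpr (chromosome 4, 136310942 to 136345981) stood at 9.71 FPKM in axons and 30.9 FPKM in cell bodies, a centred ratio of -1.24, with -0.87 in control and -0.86 in the hnRNP R knockdown. The labelled cell type was checked as well. Of the 15 motoneuron markers found, the defining genes Chat, which makes acetylcholine, and the transcription factor genes Isl2 and Mnx1 were listed at 0 in all 6 groups, and Isl1 and Prph were at 0 in both 7SK groups. Genes that every cell uses were also listed at 0 (7 cytosolic ribosomal protein genes in both 7SK groups), so a 0 can be a failed estimate.

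Of the 13968 kept records, 3113 (22.3%) were axon-rich, 2764 (19.8%) were axon-poor and 8091 (57.9%) lay between. A 0 in one compartment was enough to put a record in a class: 989 axon-poor records were listed at 0 in axons and 937 axon-rich records at 0 in cell bodies. In the control groups 19.6% of 13499 kept records were axon-rich and 16.8% axon-poor, and in the hnRNP R knockdown 21.2% and 18.9% of 13575. At the edges of the classes the values ran on without a gap. Wdfy3 (26.5 and 17.6 FPKM, ratio 1.01) lay just inside the axon-rich class and Rpl6 (40.9 and 27.3 FPKM) just outside. Reep5 (28.1 and 75.4 FPKM) lay just inside the axon-poor class and Rbm6 (10.4 and 27.8 FPKM) just outside. Arfgap3, at 1.00 FPKM in cell bodies, was just kept and Mme was just not, and 248 records had their higher value between 1 and 1.1 FPKM.

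**Figure D1:**
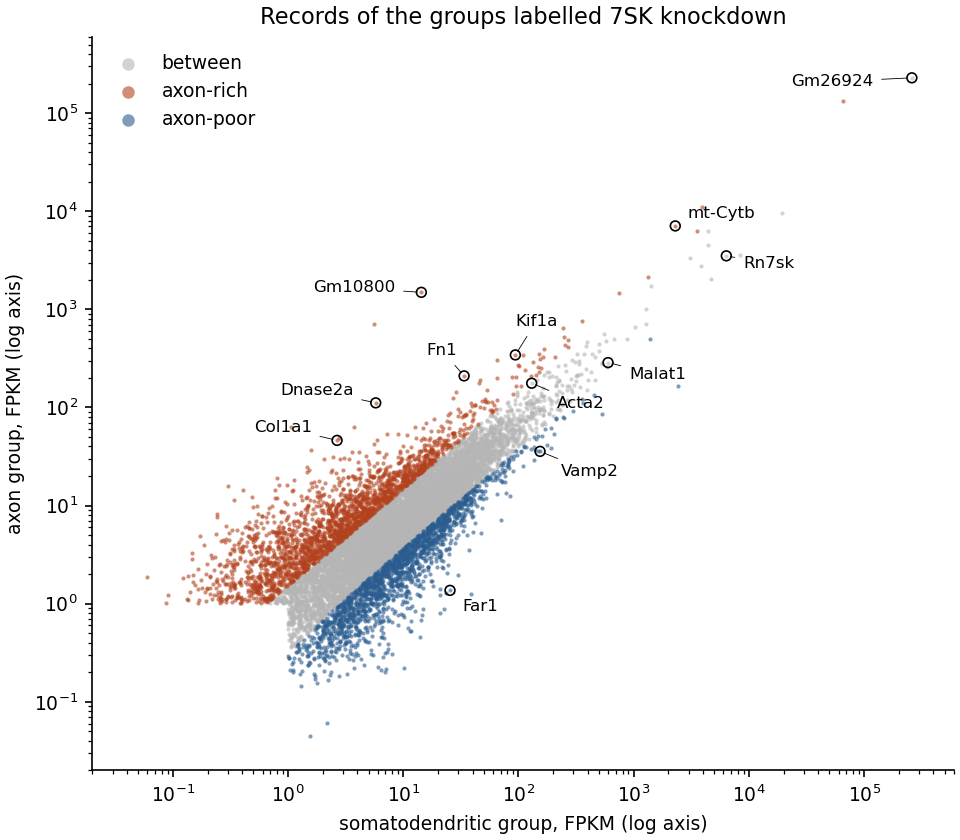
FPKM of the axon group (vertical, log axis) against the somatodendritic group (horizontal, log axis) for the kept records listed above 0 in both, with axon-rich records in red, axon-poor in blue and the remainder in grey. Gm10800, Dnase2a and Col1a1 stand far above the grey band, Vamp2 and Far1 below it, and Rn7sk lies inside it with a centred ratio of -0.44.

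How often a call came back in the other conditions depended on the level. The ratios of the 3 conditions share no library, so control and hnRNP R groups give the same measure in samples that the choice of members did not use. Of the 3113 axon-rich records 583 (18.7%) were axon-rich in all 3 conditions, or 4.17% of the kept records. Of the 2764 axon-poor records 271 (9.80%) were axon-poor in all 3, or 1.94% of the kept. The base for such a return is the share of all kept records with that call in both other conditions. Of the 13968 kept records 1084 were axon-rich in both and 737 axon-poor in both. That base was not counted within ranges of level, so the shares by level below have none beside them. Among records with a higher value of 1 to 3 FPKM, 35.9% were axon-rich and 9.68% of these returned in both other conditions. At 100 FPKM or more 19.3% of 300 records were axon-rich and 44.8% of these returned. For axon-poor records the share that returned went from 6.26% in the lowest range to 38.2% in the highest. The standard deviation of the ratio over records was 2.82 at 1 to 3 FPKM and 1.48 at 10 to 30 FPKM. Across records, Pearson's r between the 7SK and control ratios was 0.28 over 11956 records of at least 1 FPKM and 0.63 over 818 records of at least 50 FPKM, and that between control and hnRNP R knockdown was 0.45 and 0.73 over the same records. Records are not independent replicates, and the points of each condition share its libraries and scaling. Of 1084 records that were axon-rich in both other conditions and kept here, 501 were not axon-rich under 7SK knockdown, and of 737 that were axon-poor in both, 466 were not axon-poor.

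**Figure D2:**
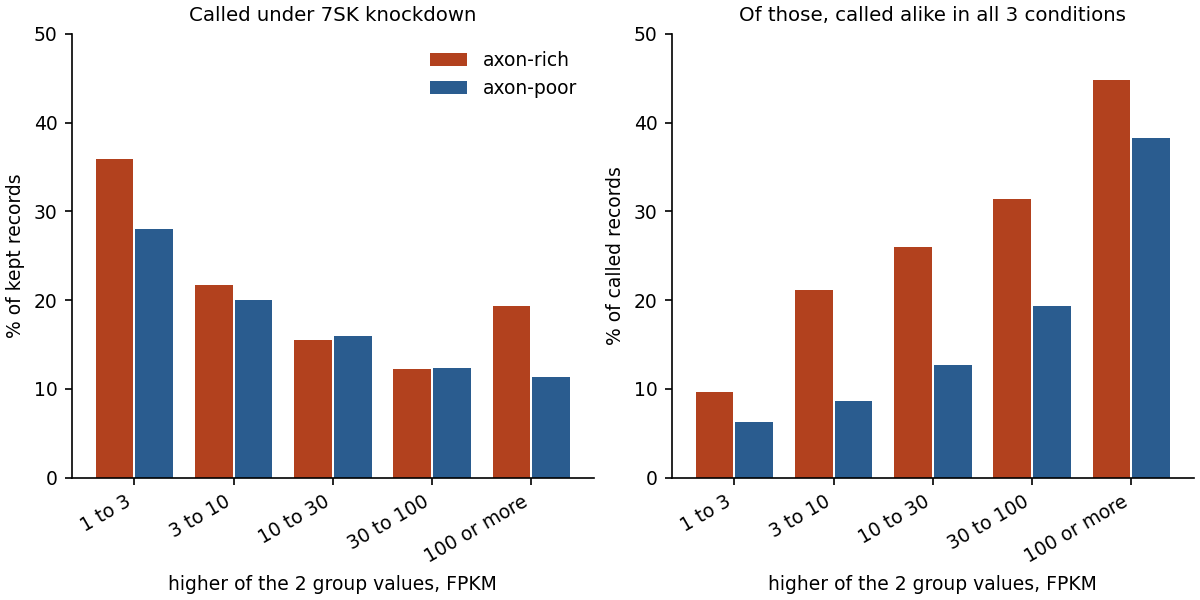
Left, the percentage of kept records called axon-rich (red) or axon-poor (blue) under 7SK knockdown in 5 ranges of the higher group value, in FPKM. Right, the percentage of those called records that carried the same call in all 3 conditions, which goes from 9.68% to 44.8% for axon-rich and from 6.26% to 38.2% for axon-poor records.

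The gene lists fell into 3 broad sets. Extracellular matrix, fibroblast and contractile genes, microglial markers, ribosomal proteins and the mitochondrial genome had median centred ratios of 0.92 or more. Presynaptic, ion channel, adhesion, cytoskeletal and dendritic genes had medians from -0.61 to -0.33. Among members of at least 10 FPKM in both compartments the medians were -0.63 for 29 presynaptic, -0.54 for 19 adhesion and -0.36 for 41 cytoskeletal genes, but -0.02 for 6 ion channel and 0.00 for 16 dendritic genes, which puts the last 2 lists at the median record. Spliceosome, proteasome and chaperone genes stood at the median record, with medians of 0.09, 0.02 and 0.05, and had 3 of 40, 3 of 32 and 0 of 32 kept members outside the middle class. Without centring every ratio is lower by 0.42, and the medians of 9 of 33 lists, all between 0 and 0.42, then lie below 0. Those lists are the respiratory chain, translation factors, small noncoding RNAs, histones, spliceosome, proteasome, chaperones, messengers reported in axons by earlier studies, and the motoneuron markers.

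**Figure D3:**
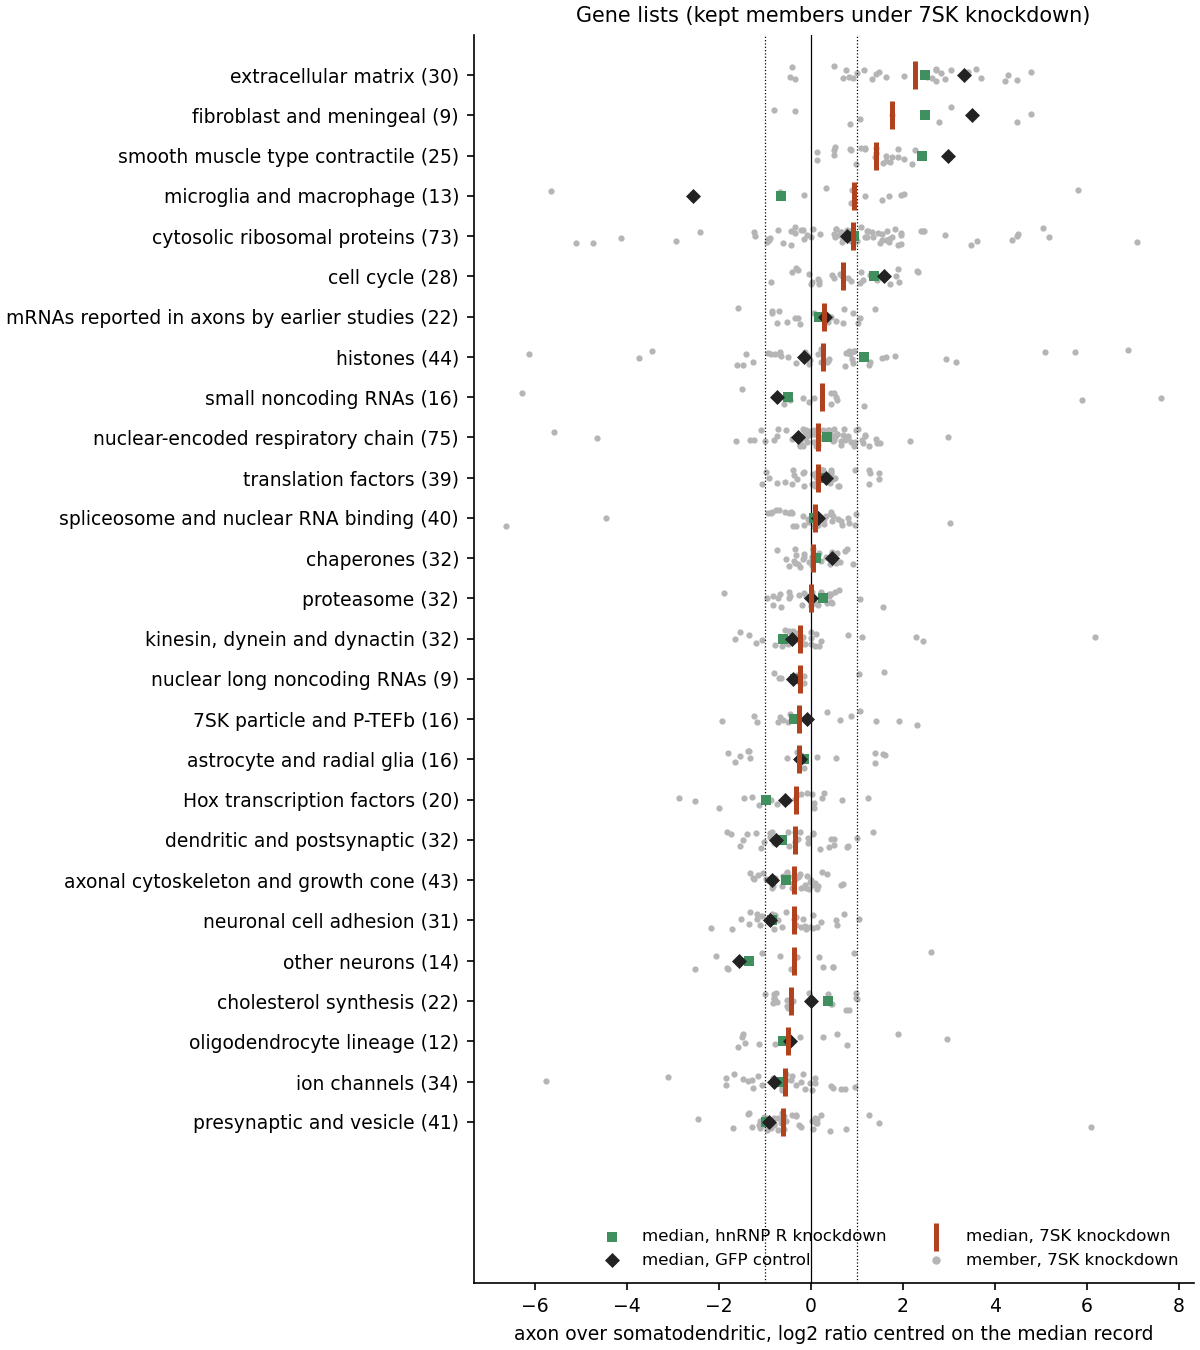
Centred log2 ratio of axon over somatodendritic FPKM for each kept member (grey points) of the gene lists with at least 9 kept members, number in brackets, with the list median under 7SK knockdown (red bar), in control (black diamond) and in the hnRNP R knockdown (green square); dotted lines mark the class limits of -1 and 1. Extracellular matrix genes have the highest median (2.28) and presynaptic genes the lowest (-0.61), and the microglial median in control (-2.56) lies on the other side of 0 from that under 7SK knockdown (0.95).

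A single gene model and the mitochondrial genome took most of the summed FPKM of the axon group. Gm26924, a gene model of chromosome 17, alone held 38.5% of the summed FPKM in axons and 43.0% in cell bodies, and its centred ratio was 0.24. The mitochondrial genome, which encodes subunits of the respiratory chain and the ribosomal RNAs of the organelle, held 25.6% in axons and 11.9% in cell bodies. All 4 of its records were axon-rich, with a median of 1.72, against 0.94 in control and 1.31 in the hnRNP R knockdown. Cytochrome b, mt-Cytb, stood at 7079 FPKM in axons and 2296 FPKM in cell bodies of the 7SK knockdown, 3753 and 2476 FPKM in control, and 4581 and 2608 FPKM in the hnRNP R knockdown, so the axon value was the higher one in each condition. The record that merges mt-Nd1 and mt-Nd2, subunits of complex I, stood at 132779 FPKM in axons and 65406 FPKM in cell bodies, a centred ratio of 1.44. It held most of the 151691 FPKM summed over the 4 records in axons. Of 15 mitochondrial genes 13 were found, and the ribosomal RNA genes mt-Rnr1 and mt-Rnr2 had no record under these names. Whether their reads enter the merged record was not tested. Lars2, the mitochondrial leucyl-tRNA synthetase, stood at 6309.7 FPKM in axons and 3525 FPKM in cell bodies of the 7SK knockdown, 5253 and 2207 FPKM in control, and 6032 and 2683 FPKM in the hnRNP R knockdown and was axon-rich in all 3 conditions. Total RNA was sequenced, so the value of the Lars2 record does not separate its messenger from other RNA assigned to that locus. Fth1, the heavy chain of the iron store ferritin, stood at 1465 FPKM in axons and 743 FPKM in cell bodies, a ratio of 1.40.

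Cytosolic ribosomal proteins, the protein part of the translating ribosome, were as a group on the axon side. Of 73 kept members 33 were axon-rich, where 22.3% of all kept records were, 7 were axon-poor and 52 lay above 0, and the median was 0.92 (0.78 in control and 0.93 in the hnRNP R knockdown). The lowly listed members were the scattered ones. Among the 12 with at least 100 FPKM in both compartments the ratios ran from -0.16 to 1.83, 7 were axon-rich and none was axon-poor, with a median of 1.16 (0.64 in control, 0.95 in the hnRNP R knockdown). Rplp0, an acidic stalk protein, stood at 650.4 FPKM in axons and 244 FPKM in cell bodies. Rpsa, a protein of the small subunit that is also known as the laminin receptor, stood at 178 FPKM in axons and 45.2 FPKM in cell bodies of the 7SK knockdown, 68.2 and 41.3 FPKM in control, and 117 and 48.7 FPKM in the hnRNP R knockdown, and its axon value was above control (q = 0.0161) in the authors' deposited table. The 2 highest members of at least 20 FPKM, Rpl18 (48.6 FPKM in axons and 2.76 FPKM in cell bodies) and Rpl12 (63.8 FPKM in axons and 3.73 FPKM in cell bodies), had ratios of 4.51 and 4.48, both well above those of control (1.13 and 1.77). At the other end Rpl13 stood at 3.55 FPKM in axons and 37.0 FPKM in cell bodies, a ratio of -2.93 against 1.55 in control, and Rpl7a at 25.2 FPKM in axons and 79.1 FPKM in cell bodies, a ratio of -1.23 against 0.42. Records of this family share reads with many processed pseudogenes, and those of Rpl12 (88.4 kb with 3 other annotated genes), Rpl18 (2 others) and Rpl13 (2 others) span neighbouring genes, so single values are uncertain.

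Nuclear genes of the respiratory chain and translation factors were nearer the middle. Of 75 respiratory chain members 11 (14.7%) were axon-rich and 6 (8.00%) axon-poor, with a median of 0.17 (-0.27 in control). Both shares were below those of all kept records (22.3% and 19.8%). Ndufb9, a complex I subunit, stood at 49.1 FPKM in axons and 14.7 FPKM in cell bodies (ratio 2.15), Atp5k, a subunit of ATP synthase, at 87.5 FPKM in axons and 41.4 FPKM in cell bodies (also axon-rich), and Sdhc, a membrane anchor of complex II, at 35.6 FPKM in axons and 147 FPKM in cell bodies (ratio -1.63). Of 39 translation factors 5 (12.8%) were axon-rich and 1 (2.56%) axon-poor. Eef1b2, an exchange factor of elongation factor 1, had a ratio of 1.29 (119 FPKM in axons and 65.3 FPKM in cell bodies), while Eef1a2, the elongation factor form of neurons and muscle, had -0.73 (58.7 FPKM in axons and 129.9 FPKM in cell bodies). Of 22 messengers reported in axons by earlier studies 3 were axon-rich and 1 was axon-poor, with a median of 0.29. Vim, the intermediate filament vimentin (325 FPKM in axons and 165 FPKM in cell bodies, ratio 1.40), and Cox4i1, a cytochrome oxidase subunit (231 FPKM in axons and 152 FPKM in cell bodies, ratio 1.03), were on the high side and Gap43, a growth cone protein (191 FPKM in axons and 459 FPKM in cell bodies, ratio -0.84), on the low side.

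Genes of the extracellular matrix and of the contractile apparatus made up the clearest axon-rich groups. Of 30 kept matrix genes 22 were axon-rich and none axon-poor, with a median of 2.28, and 21 of them were axon-rich in all 3 conditions. Fn1, fibronectin, stood at 209.6 FPKM in axons and 33.7 FPKM in cell bodies of the 7SK knockdown, 244 and 23.3 FPKM in control, and 117 and 26.0 FPKM in the hnRNP R knockdown. Col1a1, a chain of type I collagen, stood at 46.1 FPKM in axons and 2.66 FPKM in cell bodies of the 7SK knockdown, 27.1 and 2.53 FPKM in control, and 14.6 and 3.76 FPKM in the hnRNP R knockdown, and Thbs1, thrombospondin, at 143 FPKM in axons and 28.8 FPKM in cell bodies of the 7SK knockdown, 304 and 17.3 FPKM in control, and 148 and 17.3 FPKM in the hnRNP R knockdown. In each of these genes the axon value was several times the somatodendritic value in all 3 conditions. Igfbp5 (43.9 FPKM in axons and 79.6 FPKM in cell bodies, ratio -0.44) and Timp2 (33.4 FPKM in axons and 59.4 FPKM in cell bodies, ratio -0.41) were the lowest members. Of 25 contractile genes, which build actin stress fibres and smooth muscle, 17 were axon-rich, none was axon-poor and all 25 lay above 0, with a median of 1.42. In 23 of the 25 the ratio was lower than in control, where the median was 2.97, and the hnRNP R knockdown had 2.42. The exceptions were Myl6 and Lmna, which encodes the nuclear lamins A and C (23.6 FPKM in axons and 4.01 FPKM in cell bodies, ratios of 2.95 and 2.41 in 7SK knockdown and control). Tagln, transgelin, stood at 107 FPKM in axons and 41.8 FPKM in cell bodies of the 7SK knockdown, 237 and 22.6 FPKM in control, and 332 and 21.3 FPKM in the hnRNP R knockdown, in a record of 97.5 kb that spans 4 other genes. Myh9, a nonmuscle myosin heavy chain, stood at 87.0 FPKM in axons and 25.2 FPKM in cell bodies (axon-rich), and Tpm3, a tropomyosin, at 17.5 FPKM in axons and 21.2 FPKM in cell bodies (ratio 0.15).

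Markers of fibroblasts and meninges, many of them matrix genes, stood beside these groups. Of 16 markers 9 were kept and 6 of these were axon-rich, with a median of 1.77 (3.51 in control, 2.48 in the hnRNP R knockdown). Their summed FPKM was 566 in axons and 234 in cell bodies of the 7SK knockdown, 1070.1 and 151 in control and 1148 and 137 in the hnRNP R knockdown. The sums include Fn1, Col1a1, Acta2 and Tagln, which the matrix or contractile lists hold too. Dcn, Fap, Ogn, S100a4 and Twist1 were listed at 0 in both 7SK groups. The part of these cells in the matrix and contractile values was not tested.

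Promoters of the contractile genes were searched for the CArG box, the element bound by serum response factor in genes of smooth muscle and the cytoskeleton, because all of these members lay on the axon side. RefSeq windows (GRCm38.p6, 250 bases before to 50 after the start) were found for 23 of the 25 genes, and 4 of 23 (17.4%) held the box on either strand, against 1.81% of 27025 genes with a window, 1.78% of axon-rich and 1.42% of axon-poor single genes. The windows of 30 bases around the box are shown for these 4 genes, 5′ to 3′ on the strand of the gene, with the box in capitals.
Myl9: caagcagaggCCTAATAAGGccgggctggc
Cnn2: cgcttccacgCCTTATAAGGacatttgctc
Myl6: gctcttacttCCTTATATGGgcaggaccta
Vcl: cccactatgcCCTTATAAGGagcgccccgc
They lie at chr2:156775293-156775322 (plus strand), chr10:79988534-79988563 (plus), chr10:128493040-128493069 (minus) and chr14:20929161-20929190 (plus), and the box begins 161, 56, 50 and 227 bases before the annotated start. The genes encode a myosin regulatory light chain, a calponin, a myosin essential light chain and vinculin, which anchors actin at focal contacts. Myl9 stood at 61.8 FPKM in axons and 22.1 FPKM in cell bodies (ratio 1.90), Cnn2 at 34.3 FPKM in axons and 9.41 FPKM in cell bodies (ratio 2.28), Myl6 at 85.5 FPKM in axons and 57.4 FPKM in cell bodies (ratio 0.99) and Vcl at 8.01 FPKM in axons and 5.00 FPKM in cell bodies (ratio 1.09). A match describes the letters of the window, not binding. The search was made after the values were seen and covered 8 motifs. Among the others, the TEAD site (CATTCC, either strand) was held by 9 of the 23 contractile windows (39.1%) and by 16.6% of all, and the AP-1 site by 4 of 23 (17.4%) and by 5.95% of all. The CCAAT box (CCAAT, either strand) was held by 21 of 23 windows of cell cycle genes (91.3%) and by 41.1% of all. The cAMP response element (TGACGTCA, which reads the same on both strands) was held by 6 of 60 windows of ribosomal protein genes (10.0%), 2.03% of all, 3.56% of axon-rich and 3.52% of axon-poor genes.

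Cell cycle genes were also on the axon side. Of 28 members 11 (39.3%, against 22.3% of all kept records) were axon-rich and none axon-poor. Their median was 0.69 (1.59 in control), and 24 of 28 had a lower ratio than in control. Ube2c, which works with the anaphase-promoting complex, stood at 48.2 FPKM in axons and 13.0 FPKM in cell bodies (axon-rich), Ccnd1, cyclin D1, at 56.9 FPKM in axons and 19.9 FPKM in cell bodies (ratio 1.93), and Pcna, the replication clamp, at 18.6 FPKM in axons and 30.3 FPKM in cell bodies (ratio -0.28). Such genes are typical of dividing cells and not of motoneurons after their last division. The part of dividing cells in the cell cycle values was not tested. Of 44 histone genes 10 (22.7%) were axon-rich and 7 (15.9%) axon-poor, near or below the shares of all kept records (22.3% and 19.8%). Their median was 0.28, and 1.16 in the hnRNP R knockdown.

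Markers of microglia and macrophages, phagocytes of the nervous system, lay on opposite sides of 0 in 7SK knockdown and control. Of 13 kept markers 6 (46.2%) were axon-rich and 1 (7.69%) was axon-poor, where 22.3% and 19.8% of all kept records were. The median was 0.95, whereas in control none of 12 was axon-rich, 10 were axon-poor and the median was -2.56. Tyrobp, a signalling adaptor, stood at 43.0 FPKM in axons and 19.7 FPKM in cell bodies of the 7SK knockdown, 0.886 and 10.1 FPKM in control, and 7.81 and 13.4 FPKM in the hnRNP R knockdown. C1qa, a chain of the complement protein C1q, stood at 21.4 FPKM in axons and 15.4 FPKM in cell bodies of the 7SK knockdown, 1.09 and 9.15 FPKM in control, and 2.53 and 5.93 FPKM in the hnRNP R knockdown. Trem2, a lipid receptor, stood at 18.4 FPKM in axons and 7.49 FPKM in cell bodies, with 0 listed in control axons. In all 3 genes the axon value of the 7SK knockdown lay above those of both other conditions. Summed over these markers, the level was 165 FPKM in axons and 108 in cell bodies, with 18.6 and 69.6 in control and 41.7 and 77.7 in the hnRNP R knockdown. Of the defining markers, P2ry12 and Ptprc stayed below 1 FPKM in both 7SK groups. Of the 15 markers of the list only 1 was tested in axons and none in cell bodies in the authors' deposited table, and none was called. Outside the list, 4 genes above control in axons in the authors' deposited table are described here, chosen after their values were seen. Gpnmb, a lysosomal membrane glycoprotein, stood at 48.8 FPKM in axons and 20.4 FPKM in cell bodies of the 7SK knockdown, 1.81 and 13.4 FPKM in control, and 4.86 and 6.75 FPKM in the hnRNP R knockdown (axon q = 0.0252 in the authors' deposited table). Ctsl, a lysosomal protease, stood at 69.1 FPKM in axons and 47.0 FPKM in cell bodies of the 7SK knockdown, 13.0 and 34.5 FPKM in control, and 15.9 and 34.7 FPKM in the hnRNP R knockdown (axon q = 0.00561), and Spp1, the secreted protein osteopontin, at 114 FPKM in axons and 80.6 FPKM in cell bodies of the 7SK knockdown, 9.78 and 53.4 FPKM in control, and 16.3 and 43.0 FPKM in the hnRNP R knockdown (axon q = 0.00360), both q from the authors' deposited table. Apoe, a lipid carrier that astrocytes also make, stood at 324 FPKM in axons and 462 FPKM in cell bodies of the 7SK knockdown, 63.1 and 375 FPKM in control, and 183 and 575 FPKM in the hnRNP R knockdown (axon q = 0.00360 in the authors' deposited table). The part of phagocytes in these values and in those of the list was not tested.

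**Figure D4:**
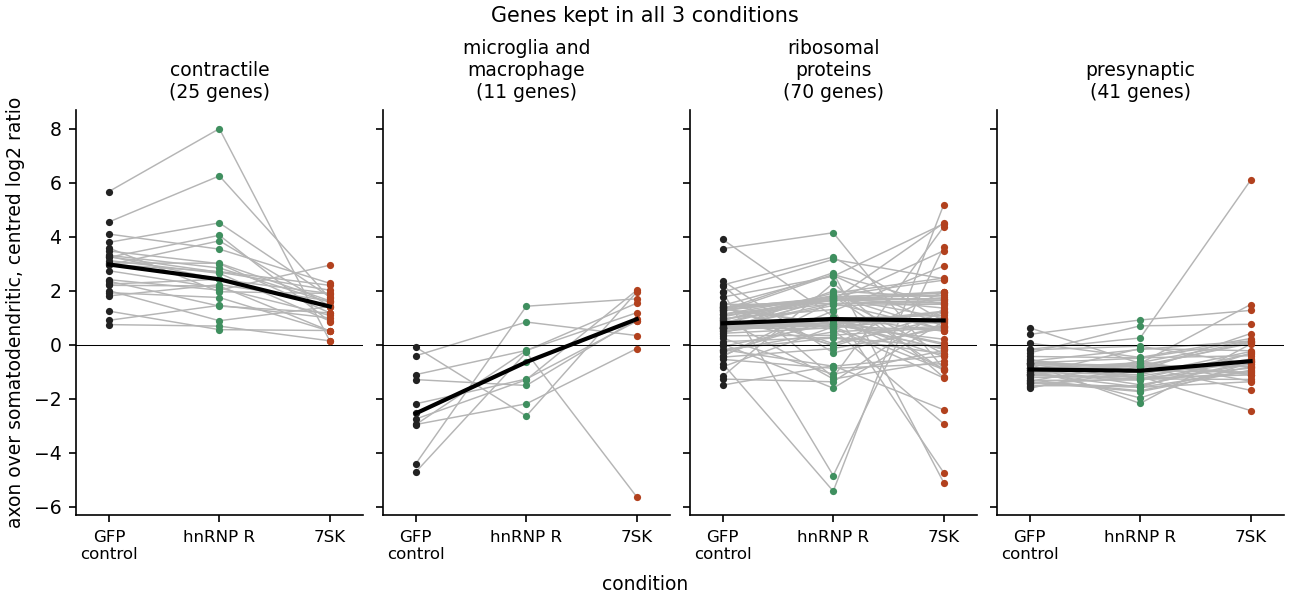
Centred log2 ratio of axon over somatodendritic FPKM in control, hnRNP R knockdown and 7SK knockdown for genes kept in all 3 conditions (points, grey lines join the same gene, the black line joins the medians). Contractile genes lie above 0 in each condition and nearest to 0 under 7SK knockdown, microglial markers lie mostly below 0 in control and mostly above it under 7SK knockdown, and points beyond -4 or 4 include genes listed at 0 in one compartment.

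Lists of neuronal genes had medians below 0, but their axon-poor shares were not all above the 19.8% of all kept records. Of 41 presynaptic and vesicle genes 10 (24.4%) were axon-poor, near that share, and 3 were axon-rich, with a median of -0.61. Vamp2, the vesicle SNARE synaptobrevin, stood at 35.7 FPKM in axons and 154 FPKM in cell bodies of the 7SK knockdown, 34.4 and 139.6 FPKM in control, and 56.5 and 145 FPKM in the hnRNP R knockdown. Its axon value was the lower one in each condition. Sv2a, a vesicle glycoprotein, had a ratio of -1.35 (11.8 FPKM in axons and 40.2 FPKM in cell bodies), while Ppfia3, a liprin scaffold of the active zone, was axon-rich at 1.49 (33.0 FPKM in axons and 15.7 FPKM in cell bodies). The list's medians were -0.92 in control and -0.96 in the hnRNP R knockdown, and 9 of 41 members had a lower ratio here than in control.

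The axonal cytoskeleton and growth cone list had no axon-rich member among 43, 5 axon-poor ones (11.6%, below the share of all records) and a median of -0.36 (-0.84 in control). Crmp1, a regulator of growth cone collapse, stood at 135 FPKM in axons and 448 FPKM in cell bodies (ratio -1.31), Basp1, a membrane-bound growth cone protein, at 61.5 FPKM in axons and 193 FPKM in cell bodies (ratio -1.22) and Pfn2, the neuronal profilin, at 39.2 FPKM in axons and 115 FPKM in cell bodies (ratio -1.14). Actb, beta-actin, whose messenger is known to travel into axons, had the highest ratio of members above 20 FPKM, 0.69 (1725 FPKM in axons and 1425 FPKM in cell bodies), with 1.32 in control and 1.59 in the hnRNP R knockdown. Of 31 adhesion genes 9 (29.0%) were axon-poor and 1 was axon-rich. Cntnap2, a neurexin relative of the nodal region, stood at 11.9 FPKM in axons and 52.4 FPKM in cell bodies (ratio -1.71) and Cntn1, contactin, at 14.1 FPKM in axons and 47.9 FPKM in cell bodies (ratio -1.34). Of 34 ion channel genes 11 (32.4%) were axon-poor and none was axon-rich, and of the 6 with at least 10 FPKM in both compartments none was axon-poor. The potassium channel gene Kcnc1 (4.90 FPKM in axons and 21.2 FPKM in cell bodies, ratio -1.67) and the calcium channel gene Cacna1a (9.47 FPKM in axons and 30.4 FPKM in cell bodies, ratio -1.26) were low in axons. Of 32 dendritic and postsynaptic genes 8 (25.0%) were axon-poor and 1 was axon-rich. Dlg2, a postsynaptic scaffold, had a ratio of -1.54 (9.20 FPKM in axons and 36.1 FPKM in cell bodies), and Map2, the dendritic microtubule protein, one of 0.50 (270.0 FPKM in axons and 255 FPKM in cell bodies) against -0.57 in control and -0.23 in the hnRNP R knockdown. Of 20 Hox genes, which set the position of motoneurons along the spinal cord, 6 (30.0%) were axon-poor and 1 was axon-rich, and Hoxb8 had a ratio of -0.85 (42.8 FPKM in axons and 103 FPKM in cell bodies).

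Motor genes lay mostly between the classes. Of 32 members 4 (12.5%) were axon-rich and 5 (15.6%) axon-poor, with a median of -0.22. Both shares were below those of all kept records (22.3% and 19.8%). Kif1a, a kinesin that carries synaptic vesicle precursors, stood at 343 FPKM in axons and 93.9 FPKM in cell bodies of the 7SK knockdown, 167 and 132 FPKM in control, and 162 and 145 FPKM in the hnRNP R knockdown. Its ratios were 2.29, 0.75 and 0.72 (7SK, control, hnRNP R). Its somatodendritic value was below control (q = 0.00407) and its axon value did not pass (q = 0.115) in the authors' deposited table. Kif5c, a heavy chain of conventional kinesin, stood at 207 FPKM in axons and 128 FPKM in cell bodies of the 7SK knockdown, 92.6 and 175 FPKM in control, and 116 and 141 FPKM in the hnRNP R knockdown. Kif2a, a kinesin that takes microtubules apart, was axon-poor at -1.54 (12.0 FPKM in axons and 46.8 FPKM in cell bodies), and Dctn6, a dynactin subunit, at -1.19 (26.8 FPKM in axons and 81.6 FPKM in cell bodies).

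Markers of other cells of the spinal cord were mostly near or below 0. Of 14 kept markers of other neurons 5 (35.7%) were axon-poor and 1 (7.14%) was axon-rich, where 19.8% and 22.3% of all kept records were. Slc6a5, the glycine transporter of inhibitory neurons, had a ratio of -1.79 (5.10 FPKM in axons and 23.9 FPKM in cell bodies) and Gad1, which makes the transmitter GABA, one of -0.67 (14.4 FPKM in axons and 30.8 FPKM in cell bodies). Of 16 astrocyte and radial glia markers 4 (25.0%) were axon-rich and 6 (37.5%) axon-poor. Nes, nestin (22.3 FPKM in axons and 11.3 FPKM in cell bodies, ratio 1.40), and Vim were the highest members of at least 20 FPKM and Slc6a11, a GABA transporter (8.25 FPKM in axons and 38.8 FPKM in cell bodies, ratio -1.80), and Aldoc (37.5 FPKM in axons and 128 FPKM in cell bodies, ratio -1.35) the low ones. Of 12 kept markers of the oligodendrocyte lineage 5 (41.7%) were axon-poor and 2 (16.7%) axon-rich. Their median was -0.50, and the ratios reached up to 2.97. Olig1 had a ratio of -1.49 (12.0 FPKM in axons and 45.2 FPKM in cell bodies). Of Schwann cell, endothelial, red blood cell and skeletal muscle markers 5, 5, 3 and 3 were kept, too few for a description of the list. Slit2, a guidance cue, was the motoneuron marker with the highest level, 33.8 FPKM in axons and 16.4 FPKM in cell bodies, and was axon-rich in all 3 conditions (1.46, 1.20 and 1.17).

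Long noncoding RNAs of the nucleus, genes of the 7SK particle and P-TEFb, and small noncoding RNAs were mostly listed on both sides. Malat1, a long noncoding RNA of nuclear speckles, stood at 286 FPKM in axons and 599 FPKM in cell bodies of the 7SK knockdown, 345 and 598 FPKM in control, and 288 and 715 FPKM in the hnRNP R knockdown, ratios of -0.65, -0.38 and -0.75. Of 9 kept nuclear long noncoding RNAs 2 (22.2%, near the 22.3% of all kept records) were axon-rich and none was axon-poor, with a median of -0.22. Of 16 kept members of the 7SK particle and P-TEFb list 4 (25.0%) were axon-rich and 3 (18.8%) axon-poor. These shares were near those of all kept records (22.3% and 19.8%). Mepce, which caps 7SK, stood at 33.6 FPKM in axons and 29.1 FPKM in cell bodies of the 7SK knockdown, 13.5 and 26.6 FPKM in control, and 18.1 and 34.6 FPKM in the hnRNP R knockdown. Aff4, a scaffold of the super elongation complex, had a ratio of 0.88 (53.0 FPKM in axons and 38.4 FPKM in cell bodies) and Ccnt1, the cyclin of P-TEFb, -0.72 (12.6 FPKM in axons and 27.7 FPKM in cell bodies). Of 16 kept small noncoding RNAs 3 (18.8%) were axon-rich and 2 (12.5%) axon-poor, both below the shares of all kept records. Their median was 0.26 (-0.73 in control). Rprl2, related to the RNA of RNase P, was axon-rich (27.9 FPKM in axons and 16.6 FPKM in cell bodies, ratio 1.16), Scarna2, a guide RNA of Cajal bodies, was axon-poor (54.1 FPKM in axons and 204 FPKM in cell bodies), and Rny3, a Y RNA, stood at 2028 FPKM in axons and 4684 FPKM in cell bodies (ratio -0.79).

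The single genes with the highest ratios, among those of at least 20 FPKM in axons and at least 1 FPKM in cell bodies, were Nfkb2, Dnase2a, Rpl18, Col1a1, Rpl12, Ctgf, Fanci, Spag5, S100a1, Phlda3, Igfbp7 and Radil, from 4.88 down to 3.70. Nfkb2, a subunit of the transcription factor NF-kappa B (chromosome 19, 46304737 to 46327156), stood at 37.2 FPKM in axons and 1.59 FPKM in cell bodies of the 7SK knockdown, 18.4 and 1.60 FPKM in control, and 22.3 and 1.72 FPKM in the hnRNP R knockdown. Ctgf, a matrix-bound growth factor, and Fanci, a DNA repair protein, likewise were far on the axon side in each condition, with control ratios of 5.24 and 5.63. Dnase2a, an acid nuclease of lysosomes (chromosome 8, 84908560 to 84937359), stood at 111 FPKM in axons and 5.76 FPKM in cell bodies of the 7SK knockdown, 4.10 and 2.31 FPKM in control, and 5.01 and 1.31 FPKM in the hnRNP R knockdown, and its axon value was above control (q = 0.00360) in the authors' deposited table. S100a1, a calcium-binding protein, stood at 31.1 FPKM in axons and 2.47 FPKM in cell bodies of the 7SK knockdown, 0.738 and 10.7 FPKM in control, and 9.09 and 3.60 FPKM in the hnRNP R knockdown, so its control ratio of -3.27 lay on the other side. Radil, a Rap1 effector, stood at 35.5 FPKM in axons and 3.57 FPKM in cell bodies of the 7SK knockdown, 3.04 and 3.15 FPKM in control, and 5.87 and 3.13 FPKM in the hnRNP R knockdown (axon q = 0.00360 in the authors' deposited table). The records of Ctgf, Igfbp7 and Radil also cover other annotated genes (for Igfbp7 these include Polr2b, for Radil Papolb). Whether the records of Nfkb2 and Dnase2a, with the spans given above, cover neighbours too is not reported here, so their values are uncertain.

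The lowest ratios, among genes of at least 20 FPKM in cell bodies and at least 1 FPKM in axons, belonged to Far1, Setd6, Rgp1, Tmem163, Rpl13, Tmem222, Cryzl1, Sez6, Car11, Ube2d1, Tac1 and Gtf2a1, from -3.70 to -2.47. Far1, which makes fatty alcohols for ether lipids (chromosome 7, 113513834 to 113571511), stood at 1.37 FPKM in axons and 25.4 FPKM in cell bodies of the 7SK knockdown, 11.8 and 13.6 FPKM in control, and 5.48 and 22.7 FPKM in the hnRNP R knockdown. Setd6, a lysine methyltransferase, stood at 1.21 FPKM in axons and 21.0 FPKM in cell bodies of the 7SK knockdown, 9.16 and 15.8 FPKM in control, and 7.60 and 37.6 FPKM in the hnRNP R knockdown. In both the axon value of the 7SK knockdown was the lowest of the 6 groups. Sez6, a transmembrane protein of neurons, stood at 5.25 FPKM in axons and 47.7 FPKM in cell bodies of the 7SK knockdown, 18.5 and 55.2 FPKM in control, and 33.9 and 67.5 FPKM in the hnRNP R knockdown, and Tac1, the precursor of substance P, at 3.17 FPKM in axons and 24.8 FPKM in cell bodies of the 7SK knockdown, 11.9 and 29.4 FPKM in control, and 7.67 and 32.0 FPKM in the hnRNP R knockdown, with ratios below 0 in each condition. The records of Rgp1 (56.0 kb with 4 other genes) and Cryzl1 (315 kb with 10 others) span their neighbours. In all 12 genes, chosen for their low value here, the ratios of control and of the hnRNP R knockdown lay above that of the 7SK knockdown.

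Some records outside these rules had larger values and were chosen after they were seen. The neighbouring gene models Gm10800 and Gm10801 of chromosome 2 stood at 1490.0 and 701 FPKM in axons of the 7SK knockdown. In the other 5 groups Gm10800 stood between 14.4 and 24.5 FPKM and Gm10801 between 5.02 and 19.0 FPKM. Their ratios were 7.11 and 7.36, against 0.22 and 0.56 in control. Gm24601, a short gene model of chromosome 6, stood at 164 FPKM in axons and 2424 FPKM in cell bodies of the 7SK knockdown, 79.5 and 224 FPKM in control, and 110.2 and 387 FPKM in the hnRNP R knockdown, a ratio of -3.46.

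Whether the axon-to-soma distribution differed between 7SK knockdown and control was tested from the authors' deposited table. For each of 888 genes tested in both compartments the axonal log2 fold change minus the somatodendritic one was centred on its median of 0.18 and set against standard errors taken from the deposited p-values (approximate z test, Benjamini-Hochberg over the 888 genes). The adjusted p was under 0.05 for 7 genes (0.788%), all with a lower ratio in the groups labelled 7SK knockdown, and the unadjusted p was under 0.05 for 101 genes, 64 lower and 37 higher. With standard errors taken from the deposited test statistic in place of the p-value, none passed and 4 had an unadjusted p under 0.05, so the calls hold under only 1 of the 2 ways to derive the error. The test assumes a normal distribution and 4 libraries a group, and its p-values are therefore not printed. Differences are given with 95% intervals, which rest on the same errors from the deposited p-values. With errors from the test statistic the intervals of Tpm1, Cnn3, Wbp5 and Gm15564 would include 0. Those of Acta2, Igfbp2 and mmu-mir-6236 would not.

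The contractile genes supplied 3 of the 7. Acta2, smooth muscle actin (chromosome 19, 34241090 to 34255336), stood at 176 FPKM in axons and 130.2 FPKM in cell bodies of the 7SK knockdown, 543 and 76.3 FPKM in control, and 673 and 59.5 FPKM in the hnRNP R knockdown, and the difference of its ratio from control was -2.57 (95% interval -3.43 to -1.70). Its axon value lay below control and its somatodendritic value above. Tpm1, tropomyosin, stood at 73.8 FPKM in axons and 69.3 FPKM in cell bodies of the 7SK knockdown, 189.5 and 54.8 FPKM in control, and 166 and 53.9 FPKM in the hnRNP R knockdown (difference -1.87, -2.63 to -1.12). Cnn3, a calponin, stood at 72.1 FPKM in axons and 67.9 FPKM in cell bodies of the 7SK knockdown, 116 and 40.3 FPKM in control, and 98.1 and 42.9 FPKM in the hnRNP R knockdown (difference -1.61, -2.45 to -0.77). All 10 contractile genes tested in both compartments had a lower ratio than in control, with a median difference of -1.66, where 444 of all 888 genes were lower. Igfbp2, a binding protein of insulin-like growth factors, stood at 62.1 FPKM in axons and 49.0 FPKM in cell bodies of the 7SK knockdown, 191 and 25.3 FPKM in control, and 201 and 38.5 FPKM in the hnRNP R knockdown (difference -2.74, 95% interval -3.89 to -1.59).

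The other 3 were Wbp5, the gene model Gm15564 and a microRNA locus. Wbp5 stood at 27.7 FPKM in axons and 43.1 FPKM in cell bodies of the 7SK knockdown, 61.4 and 21.3 FPKM in control, and 50.2 and 33.1 FPKM in the hnRNP R knockdown (difference -2.34, 95% interval -3.58 to -1.10). Gm15564, a long noncoding RNA in a record of 111 kb with 3 other genes, stood at 272 FPKM in axons and 98.4 FPKM in cell bodies of the 7SK knockdown, 654 and 53.6 FPKM in control, and 684 and 28.8 FPKM in the hnRNP R knockdown (difference -2.32, 95% interval -3.57 to -1.06). The record mmu-mir-6236 (chromosome 9, 110281287 to 110281409) stood at 6296 FPKM in axons and 4455 FPKM in cell bodies of the 7SK knockdown, 10479 and 2887 FPKM in control, and 12072 and 3332 FPKM in the hnRNP R knockdown (difference -1.54, 95% interval -2.28 to -0.79). Its mature RNA is given by RefSeq (GRCm38.p6) at chr9:110281353-110281371 on the plus strand and is shown 5′ to 3′ with the seed, bases 2 to 8, in capitals.
mmu-miR-6236: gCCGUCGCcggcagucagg
Total RNA was sequenced, so the value of the record does not separate the mature RNA from longer transcripts of the locus.

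On the higher side no gene passed. Without centring the differences, 1 gene passed on the higher side and 3 of the 7 on the lower. Among the centred differences above 0 the strongest statistics belonged to Kif1a (difference 1.35, 0.56 to 2.15), Apoe (1.88, 0.71 to 3.06) and Spp1 (2.78, 1.01 to 4.54). None passed the adjustment, and each had an interval above 0 with errors from the deposited p-values. With errors from the deposited test statistic the intervals of Kif1a, Apoe and Spp1 would include 0. Respiratory chain genes had a median difference of 0.45 over 45 tested members, 36 of them higher and none passing, and all 4 mitochondrial genome records were higher with a median of 0.60, none passing. Ribosomal proteins had a median of 0.10 over 28 members, and chaperones -0.38 over 21, of which 18 were lower and none passed. Those medians are relative to that of the 888 genes.

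**Figure D5:**
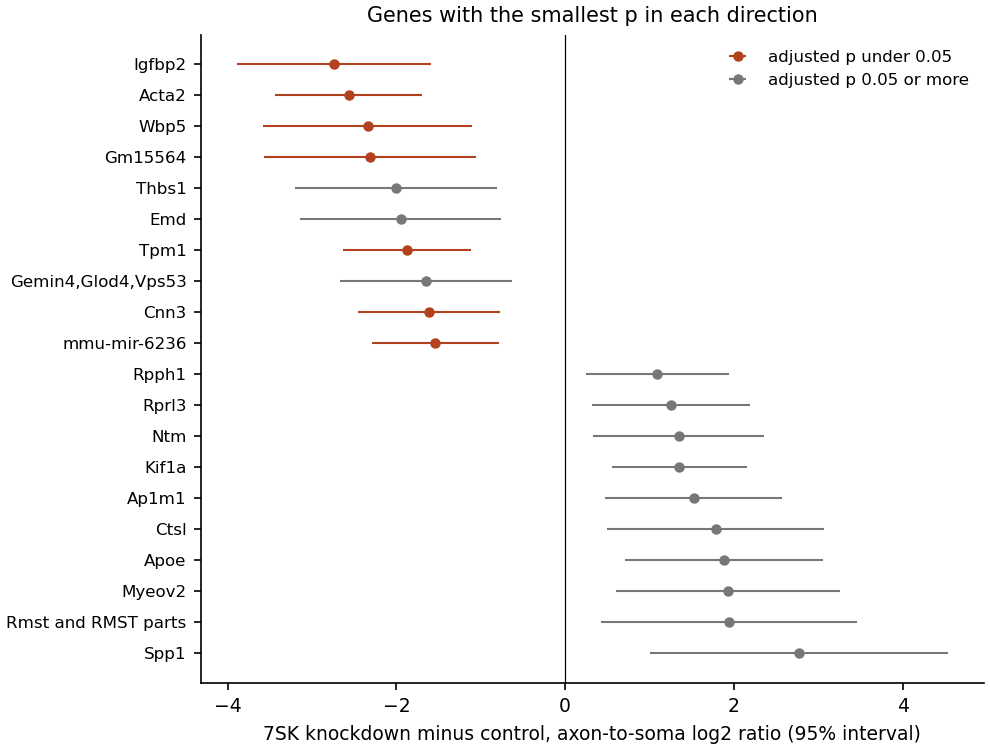
Axon-to-soma log2 ratio under 7SK knockdown minus that in control for the 10 genes with the smallest p in each direction. Points carry 95% intervals with errors from the deposited p-values. The 7 genes with an adjusted p under 0.05, drawn in red, all lie below 0, from -2.74 for Igfbp2 to -1.54 for mmu-mir-6236.

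Few members of either class differed from control within a compartment. In axons 31 of 1009 tested genes (3.07%) had a q under 0.05 in the authors' deposited table, 2.28% higher and 0.793% lower than control. In cell bodies 49 of 1954 (2.51%) did in the authors' deposited table, 1.43% higher and 1.07% lower. Of 208 axon-rich records tested in axons 14 were higher and 4 lower than control, and of 118 tested in cell bodies 5 were higher and 1 lower. Since the classes use the values of these same libraries, these counts are a description only. Of 40 axon-poor records tested in axons none was called, and of 265 tested in cell bodies 4 were higher and 3 lower. The lower ones in axons were Csrp1, Nes, Tnc and Cald1, all of them also axon-rich in control with ratios from 3.39 to 4.15. Tnc, the matrix protein tenascin, stood at 73.0 FPKM in axons and 23.8 FPKM in cell bodies of the 7SK knockdown, 243 and 18.1 FPKM in control, and 141 and 19.1 FPKM in the hnRNP R knockdown, and Csrp1, a LIM protein of smooth muscle, at 18.8 FPKM in axons and 11.0 FPKM in cell bodies of the 7SK knockdown, 89.9 and 10.7 FPKM in control, and 64.3 and 11.7 FPKM in the hnRNP R knockdown. The axon-poor genes below control in cell bodies included Mllt11 and Dcx, the microtubule protein doublecortin of young neurons (9.46 FPKM in axons and 26.2 FPKM in cell bodies), and Mt2, a metallothionein (109.9 FPKM in axons and 364 FPKM in cell bodies), was among those above.

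The kinds of gene in the 2 classes were counted as well. Among single-gene records found in RefSeq, pseudogenes made up 11.7% of axon-rich, 8.07% of axon-poor and 5.77% of all kept records, and long noncoding RNAs 4.99%, 5.00% and 2.56%. Protein-coding genes of the axon-rich class spanned a median of 20.5 kb, those of the axon-poor class 25.2 kb and all kept ones 25.9 kb. Among protein-coding genes of at least 10 FPKM, 21.7% of 488 genes up to 5 kb long were axon-rich and 9.89% of 1284 genes of 20 to 50 kb. The median ratio was 0.16 for the shortest and -0.25 for the 348 genes over 200 kb, with -0.03 and -0.42 in control and 0.27 and -0.47 in the hnRNP R knockdown. These shares depend on which genes pass the filter on level.

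The iCLIP libraries gave a readout that the choice of members did not use. iCLIP counts cDNAs that end where a protein, here hnRNP R, was crosslinked to RNA by ultraviolet light in motoneurons. The unfractionated replicates held 359005 and 319381 cDNAs, the cytoplasmic library 194816 and the nuclear one 91302. A minimum of 10 cDNAs was set on the sum of the unfractionated, cytoplasmic and nuclear libraries. Of 2182 axon-rich genes matched by name 33.0% reached it, of 1964 axon-poor genes 49.7% and of 6870 genes between 64.0%. At 30 FPKM or more the shares were 45.5% of 165, 81.3% of 160 and 73.8% of 1073 genes. Those that reached the minimum had medians of 41.8, 44.3 and 47.4 FPKM in the higher group. The levels of all genes of each class, with those below the minimum, were not compared. Gene length was not matched either, although introns held most of the cDNAs. Protein-coding genes of at least 10 FPKM spanned a median of 19.0 kb in the axon-rich and 29.4 kb in the axon-poor class. The part of length in the shares that reached the minimum was not tested. Among genes of at least 1 FPKM that reached the minimum the median, scaled to the size of each library as counts per 1e6 cDNAs (CPM), was 31.1 in axon-rich, 40.9 in axon-poor and 44.9 in the genes between. Replicate 1 gave 27.9 and 41.8, and replicate 2 gave 31.3 and 40.7. Introns held 90.1% to 95.6% of the cDNAs of both classes in each library. In the unfractionated libraries 3′ untranslated regions held 5.50% and 6.97% in axon-poor against 3.91% and 4.34% in axon-rich genes and 6.06% and 7.64% in those between (replicates 1 and 2). The motor gene Kif1a had 115 and 60 cDNAs in the replicates, 37 in the cytoplasmic and 59 in the nuclear library, and Fn1 had 18, 15, 7 and 7. Acta2 had 2 and 1 in the replicates.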

How the data were processed

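The series holds 33 libraries, of total RNA or iCLIP. The authors' FPKM values came as 4 comparison tables of 37926 records (build GRCm38), 1 value per group, made with Cufflinks 2.2.1 after FastQC 0.10.1, per the submitters' processing notes. Log2 fold changes, test scores, p-values and q-values are those of the deposited tables, knockdown over GFP, with a smallest p-value of 5e-05. The iCLIP files hold the authors' cDNA counts per gene on mm9 with Ensembl 59, per the file headers. The aligner, and how the knockdown was made, were not given in the sources used here. Another 1304 iCLIP columns with values per sample stayed out.

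Ratios, the z test (Benjamini-Hochberg, threshold 0.05) and counts were computed with Python 3.11.15, pandas 2.3.3, numpy 2.4.6 and scipy 1.17.1. The z test was run on simulated data whose p-values were drawn from the same normal model. That run could not check whether the deposited p-values give the right standard errors. Named were the 2 targets, the 12 highest and 12 lowest single genes (at least 20 FPKM in the higher and 1 FPKM in the lower compartment, no Gm or Rik symbols), the 5 highest records in axons, the 2 ends of each list among members of at least 20 FPKM, up to 10 genes per direction of the difference from control, and list members with an authors' call. Other named genes were picked after their values were seen, and some genes that the rule names are not reported here. The members and the 23 gene and 10 marker lists were chosen with earlier results of these data known. Sequences and gene classes come from RefSeq (GRCm38.p6), and iCLIP genes were joined by name, with no coordinates moved between builds. Alternatives varied the added FPKM, the filter, the centring and the treatment of merged records. iCLIP libraries of the NSC34 line were left out, since the axons here are of primary motoneurons.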

Additional observations from a re-analysis of the deposited data

Results flagged for a closer look

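The axon-to-soma ratio differed between 7SK knockdown and control for 7 genes by the z test on the authors' deposited fold changes, and each had a lower ratio under 7SK knockdown. The differences on the log2 scale were -2.57 for Acta2, -1.87 for Tpm1, -2.74 for Igfbp2, -1.54 for mmu-mir-6236, -1.61 for Cnn3, -2.34 for Wbp5 and -2.32 for Gm15564. None passed with standard errors from the deposited test statistic. The sum of fibroblast markers in axons, Acta2 among them, was 566 FPKM against 1070.1 FPKM in control, and its part in these differences was not tested.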

How the results depend on the processing

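The 3113 axon-rich and 2764 axon-poor records of 13968 became 1578 and 1299 of 10616 where both compartments had to reach 1 FPKM. Where either had to reach 10 FPKM they became 948 and 717 of 5670. Fewer records were then described, and the shares of both classes were lower as well. Records in the same class in all 3 conditions (583 and 271) became 308 and 153, and 195 and 63, under these filters. Without centring 4230 records were axon-poor, and 313 and 962 were axon-rich and axon-poor in all 3 conditions. With 1 FPKM added 155 were axon-poor in all 3 conditions. Other added amounts, filters and centrings, single-gene records, and control values from the hnRNP R tables moved these counts by less than 1.5 times. Of 77 named genes past the class limits, all kept their sign under every alternative that kept them, and between 69 (no centring) and 77 kept their class. Where 1 FPKM was required in both compartments, the medians of skeletal muscle (-0.50, 1 gene), red blood cell (1.47) and proteasome genes (just below 0) took the other sign, and at 10 FPKM that of Schwann cell markers did (0.80, 1 gene). The proteasome median also did with 1 FPKM added, and those of proteasome, chaperone, motoneuron and, in the second, spliceosome genes did under the centring on records of 10 FPKM or the common scaling.

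The difference from control gave 7 genes as described, 0 with standard errors from the test statistic and 4 without centring, 3 of the 7 lower ones and 1 higher. The median CPM of cDNAs for axon-rich and axon-poor genes were 52.7 and 61.8 with at least 20 cDNAs and 39.5 and 55.7 at 10 FPKM or more, and leaving out 1 replicate gave 40.7 to 41.8 and 50.1 to 53.2, with fewer genes reaching the minimum. The authors' calls among both classes, 30 records, were 27 to 35 under settings chosen after the data were seen. No paired analysis was possible because the tables hold 1 pooled value per group.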
